A study of Homo sapiens with 7 samples.

Results

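The acetylated chromatin of 2 T-cell acute lymphoblastic leukemia (T-ALL) lines, KARPAS-45 and PER-117, was compared from the regions called for the histone mark H3K27ac. Every region on chromosomes 1 to 22 and X was taken, which gave 63265 regions in KARPAS-45 and 53263 in PER-117. Together these were 116528 of the 185679 deposited lines on these chromosomes in 4 peak lists, the others being RUNX2 peaks. Both are established T-ALL cell lines with no treatment labelled, and KARPAS-45 is known to carry a KMT2A rearrangement. Cells were grown in RPMI-1640 medium, with more serum for KARPAS-45 than for PER-117, and chromatin was immunoprecipitated after formaldehyde fixation with the same H3K27ac antibody. Each line had 1 library, and every difference below is therefore a difference between 2 libraries, given without a test. Read depth is unknown here, and a site outside a list was not called at that unknown depth. The series is about RUNX2 in T-ALL that is immature or carries a KMT2A rearrangement. The comparison asks which lineage, signalling and progenitor genes lay in acetylated chromatin in each line.

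H3K27ac is laid down by the acetyltransferases p300 and CBP on nucleosomes beside active promoters and enhancers, and genes that define a cell's identity tend to carry it over long stretches. Developing T cells pass through ordered stages. Early thymic progenitors keep genes of blood stem cells and the myeloid lineage, and cortical thymocytes rearrange their receptor genes, express the recombination enzymes and the lipid-presenting CD1 molecules, and carry the coreceptors CD4 and CD8 together. T-ALL cells often resemble one of these stages.

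Promoters inside a region of a single line are shown first, because they carry the contrast that recurs below. They were chosen after the values were seen: 3 thymocyte genes whose promoter was acetylated in KARPAS-45 and 3 genes whose promoter was acetylated in PER-117. Each run is the 250 bases before the start used by RefSeq's promoter entry, which for CD8A and IL21R lies inside the gene span (build GRCh38.p14, the hg38 build of the files), written 5′ to 3′ on the strand of the gene. Capitals mark matches on either strand to 3 short motifs. The motif core bound by RUNX proteins was searched as TGTGGT. The motif of the GATA family was searched with the letters AGATAA. For ETS factors the letters searched were GGAAGT.
CD1A: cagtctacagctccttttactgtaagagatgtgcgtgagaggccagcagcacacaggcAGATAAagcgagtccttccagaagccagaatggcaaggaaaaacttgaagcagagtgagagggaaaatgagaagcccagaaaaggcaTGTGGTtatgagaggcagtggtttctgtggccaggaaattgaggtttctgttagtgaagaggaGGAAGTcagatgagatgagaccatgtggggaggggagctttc
DNTT: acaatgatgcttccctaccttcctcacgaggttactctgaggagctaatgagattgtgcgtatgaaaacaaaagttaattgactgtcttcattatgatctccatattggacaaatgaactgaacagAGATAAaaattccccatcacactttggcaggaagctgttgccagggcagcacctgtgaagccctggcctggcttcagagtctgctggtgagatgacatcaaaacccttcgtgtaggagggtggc
CD8A: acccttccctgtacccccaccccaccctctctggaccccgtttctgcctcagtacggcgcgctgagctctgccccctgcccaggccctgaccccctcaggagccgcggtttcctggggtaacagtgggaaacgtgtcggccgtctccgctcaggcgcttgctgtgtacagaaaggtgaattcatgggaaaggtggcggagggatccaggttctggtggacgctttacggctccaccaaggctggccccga
GATA2: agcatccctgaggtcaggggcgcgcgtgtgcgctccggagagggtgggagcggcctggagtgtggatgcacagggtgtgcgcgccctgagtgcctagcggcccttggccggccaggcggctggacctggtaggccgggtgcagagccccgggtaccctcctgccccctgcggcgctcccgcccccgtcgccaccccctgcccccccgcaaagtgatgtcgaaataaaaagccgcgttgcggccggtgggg
FASLG: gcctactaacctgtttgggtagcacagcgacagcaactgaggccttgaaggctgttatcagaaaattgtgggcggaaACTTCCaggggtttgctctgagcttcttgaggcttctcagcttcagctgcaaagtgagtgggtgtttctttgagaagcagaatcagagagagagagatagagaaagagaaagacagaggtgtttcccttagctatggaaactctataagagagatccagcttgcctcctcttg
IL21R: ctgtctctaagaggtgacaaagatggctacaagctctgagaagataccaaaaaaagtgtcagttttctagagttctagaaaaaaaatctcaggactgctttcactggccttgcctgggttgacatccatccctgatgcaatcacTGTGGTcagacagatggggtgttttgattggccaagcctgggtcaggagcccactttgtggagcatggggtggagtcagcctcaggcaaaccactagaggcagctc

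The promoter of CD1A, a lipid-presenting molecule of cortical thymocytes, lies at chr1:158248086-158248335 on the plus strand. All 250 bases fell inside a KARPAS-45 region of 13184 bp, and 0 bases in PER-117. This promoter held 1 match to each of the 3 motifs. The promoter of DNTT, the polymerase that adds bases at receptor gene joints, lies at chr10:96304184-96304433 on the plus strand inside a KARPAS-45 region of 25305 bp, with 1 GATA match. The promoter of CD8A, a chain of the CD8 coreceptor, lies at chr2:86808043-86808292 on the minus strand inside a KARPAS-45 region of 58528 bp and held none of the 3 motifs. In PER-117 the promoter of GATA2, a factor of blood stem and progenitor cells, lay inside a region of 17776 bp (chr3:128493202-128493451, minus strand). The promoter of FASLG, a death receptor ligand of activated T cells, lay inside one of 6561 bp (chr1:172658853-172659102, plus strand), with 1 ETS match. The promoter of IL21R, a cytokine receptor chain, lay inside one of 8800 bp (chr16:27427021-27427270, plus strand), with 1 RUNX match. These 3 runs had 0 acetylated bases in KARPAS-45. A KARPAS-45 region of 2912 bp did cover the 5′ end of the IL21R span, away from its run. The GATA2 run held 24 CpG dinucleotides and CD8A 15, against 3 in DNTT, 2 in CD1A and FASLG and 0 in IL21R.

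**Figure D1:**
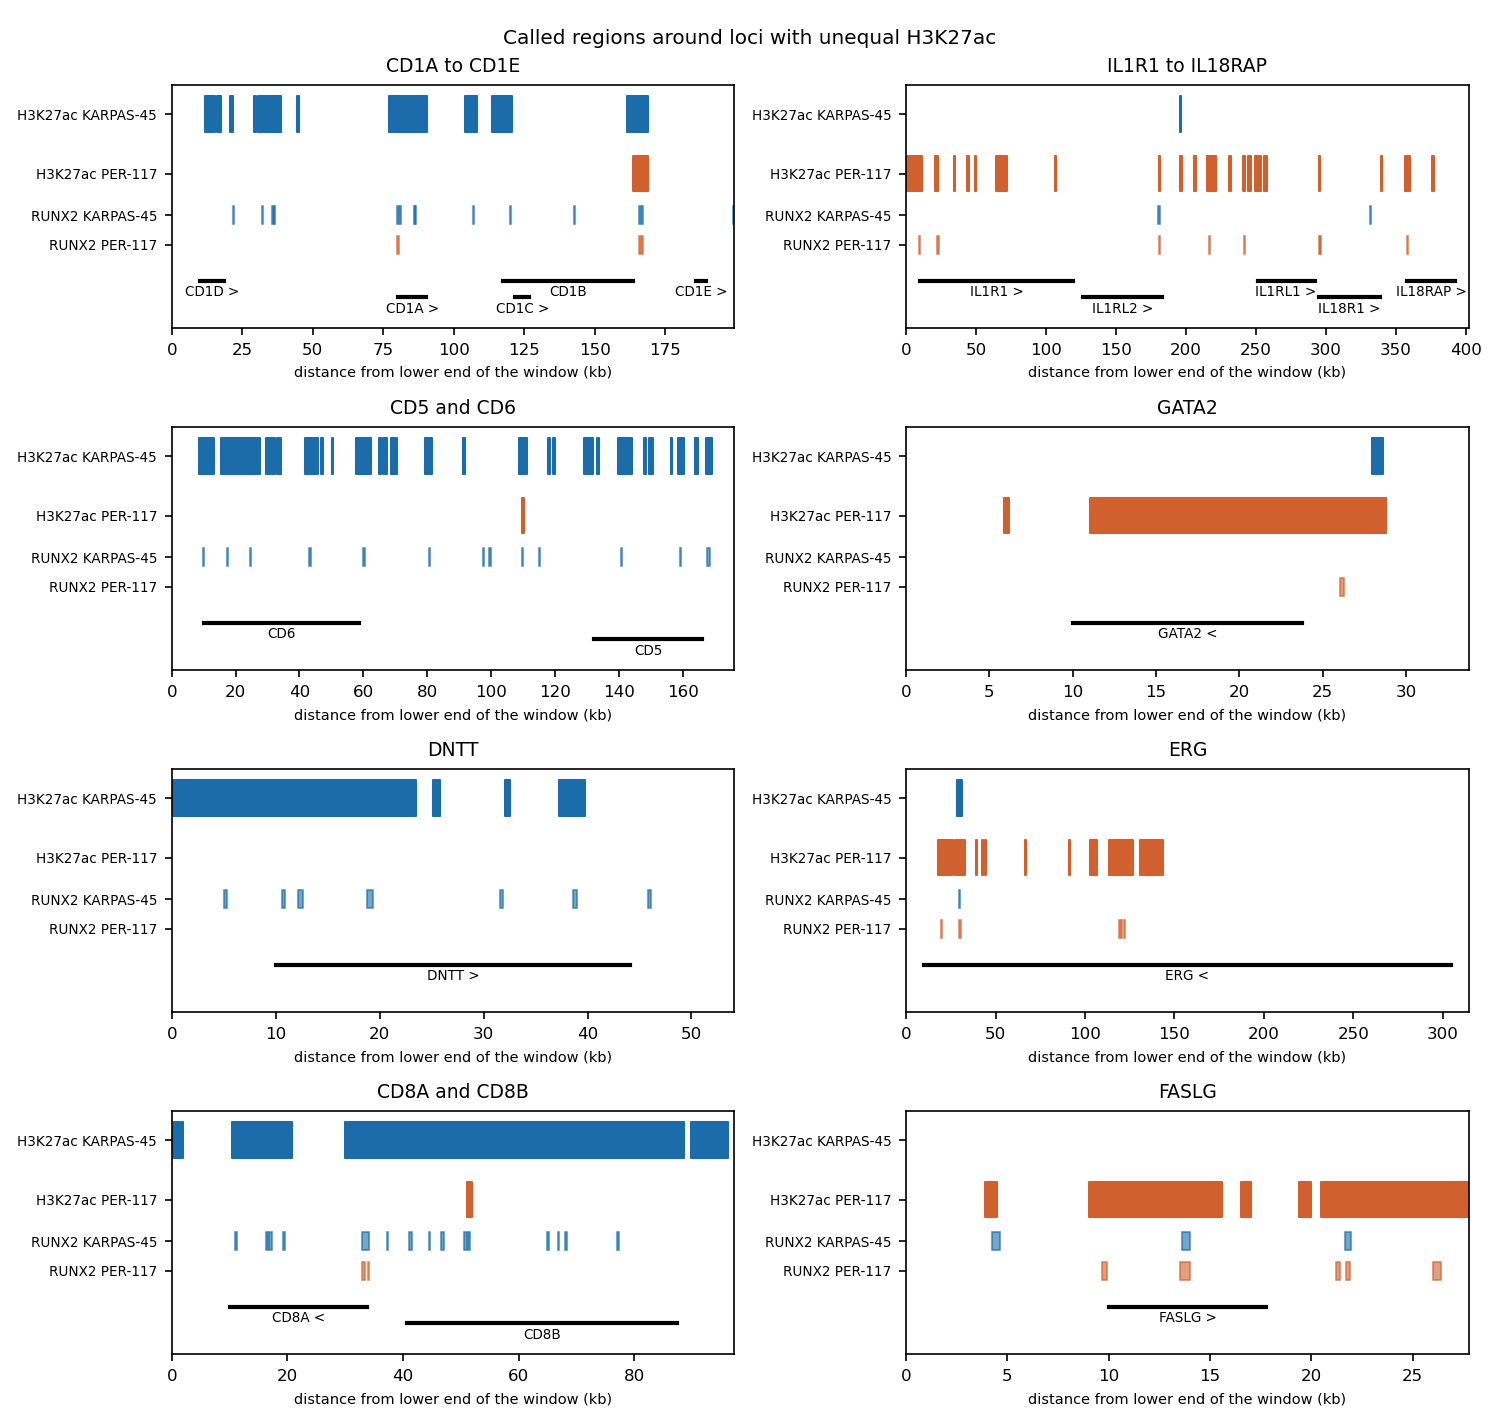
Called regions around 8 loci. The horizontal axis of each panel is the distance in kb from the lower end of the plotted window, the upper bars are H3K27ac regions, the lower bars RUNX2 peaks, black lines gene spans with the direction of transcription where the RefSeq table gave it, and narrow regions are drawn at a minimum width. KARPAS-45 (blue) fills the 4 loci on the left and PER-117 (orange) the 4 on the right, where KARPAS-45 has 0.672 kb at GATA2, 3.22 kb at ERG and none at FASLG.

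The lists differed in size and grain before any gene was considered. KARPAS-45 regions covered 167 Mb with a median width of 1270 bp, and PER-117 regions covered 76.2 Mb with a median of 816 bp, a ratio of covered bases of 2.19. Long regions were more common in KARPAS-45: 2529 KARPAS-45 regions were over 10 kb and held 32.6% of its covered bases, against 398 regions and 7.42% in PER-117. The longest was 368 kb in KARPAS-45 and 38.7 kb in PER-117, and the smallest gap between neighbouring regions 833 and 301 bp. Of the shared KARPAS-45 regions, 4501 overlapped 2 or more PER-117 regions, up to 52 for 1 region, whereas 494 PER-117 regions overlapped 2 or more of KARPAS-45. A value in covered kb is therefore read within a line against the other genes of that line, and the ratio between the lines against its median over all genes.

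At the level of bases, 44.9 Mb were acetylated in both lines, 122 Mb in KARPAS-45 alone and 31.3 Mb in PER-117 alone. The shared bases were 26.96% of the KARPAS-45 and 58.9% of the PER-117 total. Counted as regions with an overlap of 1 bp or more, 22351 of KARPAS-45 were shared (35.3%, Wilson 95% interval 34.96 to 35.7) and 31003 of PER-117 (58.2%, 57.8 to 58.6). These intervals, here and below, cover counting error only. Both shares depended on region width: with middle stretches of 500 bp in place of whole regions they were 21.3% and 25.4%.

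Width and location moved with sharing in both lists. In KARPAS-45 the shared portion was 12.6% of 10927 regions under 500 bp (11.97 to 13.2) and 70.5% of 9399 regions of 4000 bp or more (69.6 to 71.4). In PER-117 it went from 41.5% of 17547 regions (40.8 to 42.2) to 77.0% of 3308 regions (75.5 to 78.4). Of the regions within 1 kb of the start of a protein-coding gene, KARPAS-45 shared 84.7% (83.99 to 85.5) and PER-117 92.4% (91.8 to 92.9). Regions inside genes away from a start were shared at 26.3% and 55.1%, and regions outside genes at 28.9% and 43.7%. Regions at starts were also wider, with medians of 2804 and 1763 bp against 1093 and 628 bp inside genes. Of the 40914 regions found in KARPAS-45 alone, 3.41% lay at a start and 71.5% inside a gene, and of the 22260 found in PER-117 alone 3.001% and 61.3%. Over all regions of KARPAS-45 and PER-117, 14.4% and 16.4% lay at a start and 62.7% and 57.1% inside a gene. Single-line regions thus lay at gene starts less often than all regions did.

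**Figure D2:**
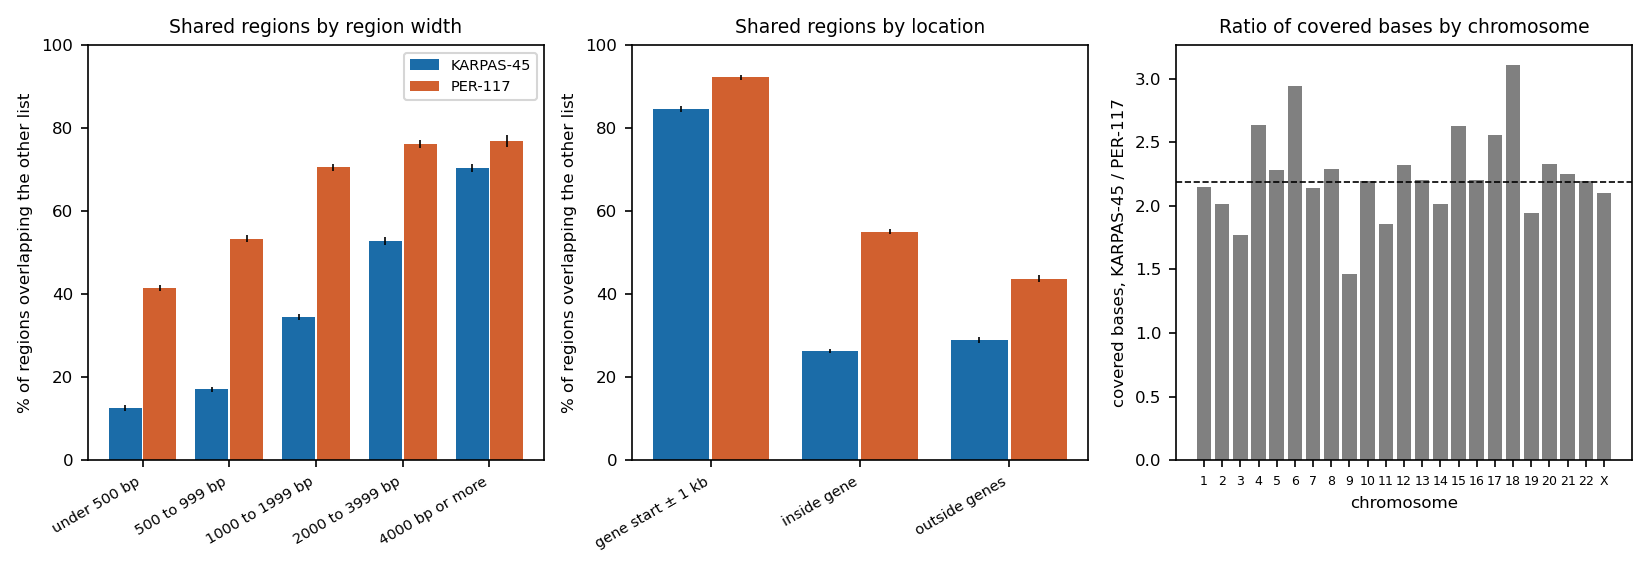
Left and middle, the percentage of H3K27ac regions of each line that overlap a region of the other line by 1 bp or more, by region width and by location, with Wilson 95% intervals as error bars. Right, covered bases of KARPAS-45 divided by those of PER-117 for each chromosome, with the ratio over all chromosomes dashed at 2.19; chromosome 9 is lowest at 1.47 and chromosome 18 highest at 3.11.

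The ratio of covered bases was not the same along the genome. By chromosome it ranged from 1.47 on chromosome 9, where PER-117 had more regions than KARPAS-45 (2753 against 2291), to 3.11 on chromosome 18 and 2.95 on chromosome 6. In windows of 1 Mb, KARPAS-45 covered more in 1877 of 3042, PER-117 more in 752, and neither line had a region in 413. PER-117 led by the widest margin at 106 to 107 Mb of chromosome 14, with 186 kb against 5.03 kb, in the variable part of the immunoglobulin heavy chain locus. KARPAS-45 led by the widest margin at 14 to 15 Mb of chromosome 6, with 485 kb against 35.7 kb.

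For genes, the covered bases were summed over the gene span with 10 kb added on each side, and a gene was called covered when 1 base or more of this window lay in a region. In a bulk sample, acetylation in fewer cells and weaker acetylation in every cell cannot be told apart. Neighbouring genes can share a region, so adjacent genes are not separate observations, and genes without their own promoter mark can be covered through a neighbour. Of 19974 protein-coding genes, 12992 were covered in both lines (65%) and 4321 in neither (21.6%). A further 1784 were covered in KARPAS-45 only (8.93%) and 877 in PER-117 only (4.39%). Where both lines covered a gene, the median ratio of KARPAS-45 to PER-117 bases was 1.957, with quartiles of 1.16 and 3.53. KARPAS-45 had 4 times or more the bases at 21% of these genes and PER-117 at 2.69%. PER-117 had more bases at 2516 of them (19.4%). Of 15812 genes with a known start, 1235 had it within 1 kb of a region in KARPAS-45 only (7.81%) and 490 in PER-117 only (3.1%). Single-line coverage was often short, with a median of 1794 bp for the genes of KARPAS-45 only and 2015 bp for those of PER-117 only. Of 544 genes on 23 lists of lineage, signalling, progenitor and control genes, 58 were covered in KARPAS-45 only (10.7%) and 37 in PER-117 only (6.80%), beside 8.93% and 4.39% of all genes. Of those, 20 stayed in KARPAS-45 only and 20 in PER-117 only through 8 other settings of regions, windows and minimum coverage. These leave out the setting that shortens the KARPAS-45 list alone but keep one that shortens the PER-117 list alone. The latter cannot remove a gene from KARPAS-45 only, and joining nearby regions cannot change either state. Those settings were therefore no check of the states they cannot change.

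**Figure D3:**
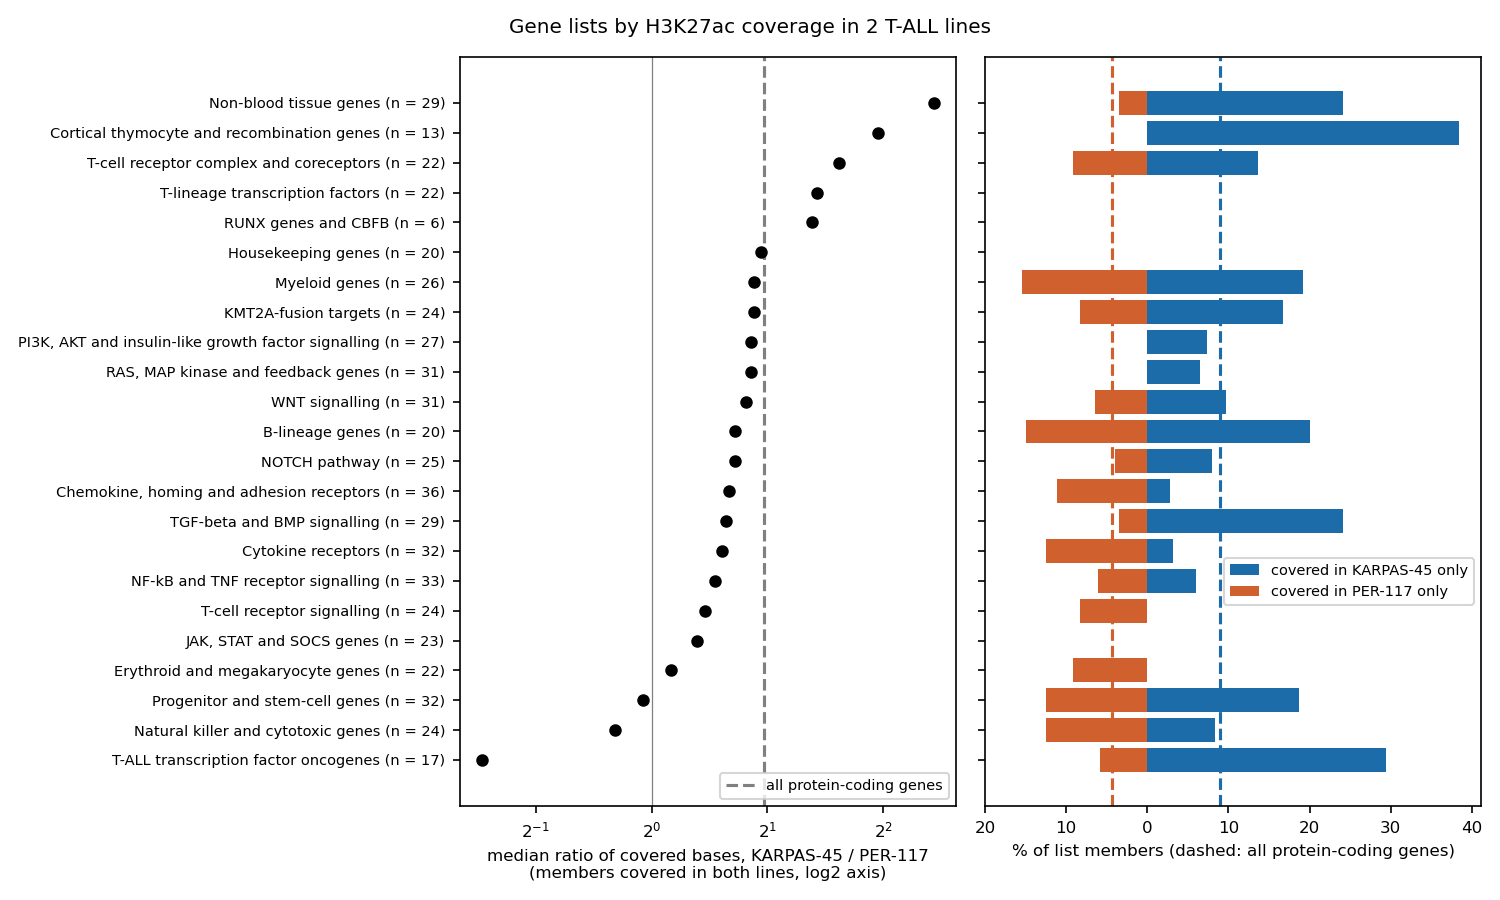
Left, the median ratio of covered bases (KARPAS-45 over PER-117, log2 axis) among members of each list covered in both lines, with the median of all protein-coding genes dashed at 1.957. Right, the percentage of list members covered in KARPAS-45 only (blue, to the right) and in PER-117 only (orange, to the left), with all protein-coding genes dashed at 8.93% and 4.39%; the cortical thymocyte list has the largest KARPAS-45 share, 38.5%.

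Genes of the cortical thymocyte and of V(D)J recombination, which cuts and joins receptor gene segments, had the largest KARPAS-45-only share of the 23 lists. Of 13 members, 5 were covered in KARPAS-45 only, 0 in PER-117 only, 7 in both and 1, CD1E, in neither. The single-line shares, 38.5% and 0%, stand beside 8.93% and 4.39% of all genes. The 5 were 6 with the wider 50% of regions and 3 with 50 kb around the gene. DNTT had 27.1 kb in KARPAS-45 and none in PER-117, CD1A 13.2 kb, CD1C 7.08 kb and CD1D 5.55 kb, all in KARPAS-45 only. CD38, an ectoenzyme of activated and immature lymphocytes, had 2.75 kb there. The CD1 cluster as a whole (chromosome 1, 158178030 to 158357553) held 47.1 kb in 10 KARPAS-45 regions and 5.47 kb in 1 PER-117 region. That PER-117 region lay just past the higher end of the CD1B span and overlapped a KARPAS-45 region. The RefSeq span of CD1B also takes in CD1C, so their windows share a region. That region is the only one in the CD1C window. It lay before the CD1C span, and the CD1C start was not within 1 kb of a region. In the 7 members covered in both, the median ratio was 3.89, against the 1.957 of all genes, and KARPAS-45 had more bases at each. PTCRA, the surrogate alpha chain of the pre-T-cell receptor, had 29.8 kb against 4.42 kb, RAG2 8.06 against 0.733 kb, and its partner recombinase RAG1 5.33 against 2.58 kb. The RAG1 and RAG2 starts were within 1 kb of a region in both lines.

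The coreceptors and T-cell surface markers followed, while the receptor complex itself was acetylated in both lines. CD3D, CD3E, CD3G and CD247, the signalling chains of the receptor, had 20.1, 23.97, 21.6 and 92.8 kb in KARPAS-45 and 5.52, 8.11, 7.02 and 26.3 kb in PER-117. Together with the adhesion receptor CD2 (26.5 and 9.703 kb), the early T-cell marker CD7 (15.3 and 6.37 kb) and the kinase LCK (51.1 and 19.03 kb), all 7 T-lineage markers used to check the label were covered in both lines. CD8B had 64.05 kb in KARPAS-45 and 0.826 kb in PER-117, and CD8A 26.2 kb and none. A single KARPAS-45 region of 58.5 kb held the CD8A start and all of the CD8B span. CD4 had 22.5 and 1.28 kb. The scavenger-type receptors CD5 and CD6, which temper receptor signalling, had 14.1 and 32.03 kb in KARPAS-45 and none in PER-117, where the stretch from CD6 to CD5 held 1 region of 0.608 kb. CD226, an activating receptor, had 116 and 15.1 kb, and the inhibitory receptor LAG3 15.4 and 3.14 kb.

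CD28 and its neighbour ICOS had more in PER-117. CD28, the main costimulatory receptor of T cells, had 0.885 kb in KARPAS-45 and 15.8 kb in PER-117, a ratio of 17.8 in favour of PER-117. Its relative ICOS had none and 5.38 kb, and CD40LG, the ligand through which T cells help B cells, none and 2.55 kb. CD27, another costimulatory receptor, had 14.9 and 9.59 kb. CTLA4, which lies between CD28 and ICOS, and TIGIT were covered in neither line. In all, 3 of 22 receptor, coreceptor and costimulatory genes were covered in KARPAS-45 only (13.6%) and 2 in PER-117 only (9.09%). Over all genes these shares were 8.93% and 4.39%. The median ratio of the 15 covered in both was 3.07, above that of all genes. With middle stretches of 500 bp, which count regions and not their length, this median was 0.667 against 1 for all genes, so the list lay above all genes by bases and below them by this count.

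Receptor signalling genes were divided between the lines. Of 24 members, 22 were covered in both lines, with a median ratio of 1.38. KARPAS-45 had 4 times or more the bases at THEMIS, a signalling protein of positive selection (106 against 4.98 kb), NFATC1 (117 against 8.61 kb) and PTPN22, a phosphatase (33.7 against 6.82 kb). PER-117 had 4 times or more at genes including SKAP1, an adaptor of integrin activation (0.242 against 23.7 kb), and SH2D2A, an adaptor of activated T cells (1.65 against 12.4 kb). Each line led so at 3 of the 22, beside 21% of all genes covered in both for KARPAS-45 and 2.69% for PER-117. NFATC2, a calcium-dependent factor, was covered in PER-117 only, with 17.6 kb in 16 regions, as was the kinase TXK with 2.32 kb. The 2 NFAT genes thus lay on opposite sides, NFATC1 with KARPAS-45 and NFATC2 with PER-117. The adaptor LCP2 also had more in PER-117 (27.7 and 35.9 kb), while ZAP70 had 28.2 and 15.9 kb and PTPRC (CD45) 82.3 and 28.02 kb.

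All 22 measured members of the T-lineage transcription factor list were covered in both lines. Their median ratio was 2.69 (0.833 with middle stretches of 500 bp, against 1 for all genes). KARPAS-45 had 4 times or more at 7 of them and PER-117 at 0, beside 21% and 2.69% of all genes covered in both lines. The list includes THEMIS, a signalling protein that is also on the signalling list and is 1 of the 7, which leaves 6 of 21 without it. GATA3, required for T-cell commitment, had 17.5 kb in 6 regions and 0.814 kb in 2, a ratio of 21.5. TOX2, an HMG-box factor, had 18.8 and 1.28 kb. TCF12, an E-protein, had 179.8 and 16.2 kb, and SATB1, a chromatin organiser of thymocytes, 94.05 and 13.7 kb. The core factors TCF7 (58.96 and 31.8 kb), LEF1 (43.9 and 27.7 kb), BCL11B (88.5 and 32.95 kb) and IKZF1 (93.6 and 60.9 kb) were covered at length in both. ZNF683, a factor of resident cytotoxic lymphocytes, had 5.12 and 14.4 kb.

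In the NOTCH pathway, the main oncogenic signal of T-ALL, 22 of 25 genes were covered in both lines. NOTCH1 itself had 48.9 and 47.8 kb, a ratio of 1.02 against the 1.957 of all genes. The direct targets DTX1 (26.2 and 9.75 kb), HES1 (12.01 and 5.34 kb), HES4 (9.46 and 5.71 kb) and NRARP (9.69 and 6.12 kb) were covered in both. NOTCH3, also a target, had 26.3 and 2.18 kb. MAML3, a coactivator of the NOTCH complex, had 7.52 kb in 5 regions and 74.8 kb in 43. The ligand genes JAG2 (16.6 kb) and JAG1 (2.21 kb) were covered in KARPAS-45 only, and NOTCH2 (1.29 kb) in PER-117 only.

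**Figure D4:**
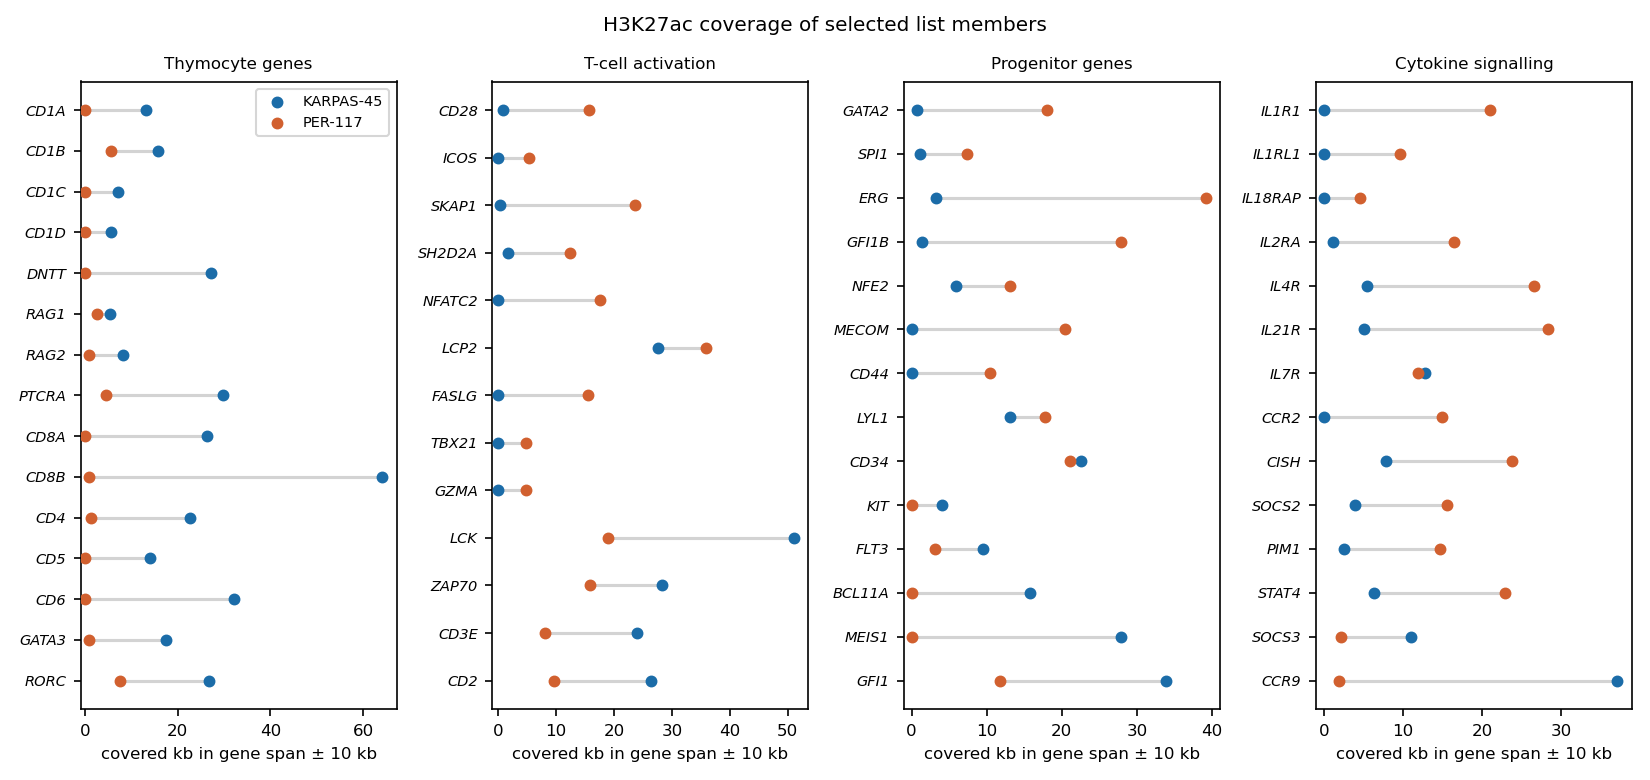
Covered kb in the gene span plus 10 kb on each side for selected members of the lists, KARPAS-45 in blue and PER-117 in orange, 1 library each. Among the genes plotted, thymocyte genes are higher in KARPAS-45 (CD8B at 64.05 against 0.826 kb). The plotted progenitor and cytokine genes, such as ERG (3.22 against 39.1 kb), are higher in PER-117, except CD34, KIT, FLT3, BCL11A, MEIS1, GFI1, IL7R, SOCS3 and CCR9. The whole lists are more mixed: PER-117 had more bases at 11 of 19 progenitor genes and 7 of 23 cytokine receptors covered in both lines.

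Progenitor and stem-cell genes did not all follow 1 line. Of 32 members, 19 were covered in both lines, 6 in KARPAS-45 only (18.8%), 4 in PER-117 only (12.5%) and 3 in neither. Over all genes the single-line shares were 8.93% and 4.39%. The median ratio of the 19 was 0.953, below the 1.957 of all genes, but with the wider 50% of regions of each list it was 1.77 against 1.92. PER-117 had 4 times or more the bases at 4 of the 19, beside 2.69% of all genes covered in both, and KARPAS-45 at 1, beside 21%. The 4 belong to the stem cell, myeloid and megakaryocyte programme. GATA2 had 0.672 kb in KARPAS-45 and 18.1 kb in PER-117, GFI1B, a repressor of the erythroid and megakaryocyte lineage, 1.38 and 27.9 kb, and the ETS factor ERG 3.22 and 39.1 kb. SPI1 (PU.1), the myeloid and early thymic ETS factor, had 1.06 and 7.31 kb. MECOM, a stem cell regulator, had 20.4 kb in 18 regions in PER-117 and none in KARPAS-45, the adhesion receptor CD44 10.5 kb and none, and HOPX 2.49 kb and none.

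Other progenitor genes were acetylated in KARPAS-45 only. MEIS1, the homeobox partner of HOX proteins and a KMT2A-fusion target, had 27.9 kb in 17 regions, BCL11A, a factor of lymphoid progenitors, 15.7 kb, and KIT, the stem cell factor receptor, 4.07 kb with its start within 1 kb of a region. PROM1 had 2.97 kb, CEBPA 2.13 kb and MN1 0.95 kb. FLT3 had 9.48 and 3.09 kb. CD34, the marker of progenitors, was covered in both lines, with 22.5 kb in 4 regions and 21.1 kb in 8, of which 15.8 kb were common, a ratio of 1.07 against the 1.957 of all genes. LYL1, a helix-loop-helix factor linked to immature T-ALL, had 13.1 and 17.8 kb. MEF2C, HLF and THY1 were covered in neither line.

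Among T-ALL transcription factor oncogenes, the genes that rearrangements switch on in this leukemia, 6 of 17 were covered in both lines, 5 in KARPAS-45 only, 1 in PER-117 only and 5 in neither. The single-line shares, 29.4% and 5.88%, stand beside 8.93% and 4.39% of all genes. Coverage was short in most: in KARPAS-45 TLX3 had 1.13 kb, MYCN 0.778 kb, HOXA13 0.551 kb, LMO1 0.268 kb and TLX1 0.212 kb, and in PER-117 TAL1 had 0.429 kb. The regions at TLX3, TLX1 and TAL1 lay outside the gene spans. With the gene span alone, 3 genes of the list were covered in KARPAS-45 only and 0 in PER-117 only. Of the 6 covered in both, PER-117 had more bases at 5, and their median ratio was 0.364 against the 1.957 of all genes. PER-117 had 4 times or more at 3 of the 6 (OLIG2, ERG and SPI1), beside 2.69% of all genes covered in both. ERG and SPI1 are also on the progenitor list. KARPAS-45 led so at 1, beside 21%: MYB, a factor needed by most T-ALL cells, with 45.4 and 10.8 kb. Of 24 KMT2A-fusion targets, 17 were covered in both, 4 in KARPAS-45 only (16.7%) and 2 in PER-117 only (8.33%), beside 8.93% and 4.39% of all genes. The KARPAS-45 genes were MEIS1, PROM1, HMGA2, a chromatin protein of fetal cells (45.9 kb), and IGF2BP2, an RNA-binding protein (6.91 kb). The PER-117 genes were MEIS2 (6.99 kb) and HOXA5 (1.21 kb). The HOXA5 region lay outside the gene span, and with the gene span alone the PER-117 count was 1. SUPT3H had 282 and 30.997 kb, MBNL1 173 and 24.6 kb, JMJD1C 164 and 24.2 kb and SENP6 50.6 and 3.08 kb, all 4 times or more in KARPAS-45. These were 4 of the 17, near the 21% of all genes covered in both lines. PBX3 had 5.68 and 11.5 kb.

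The HOX clusters, which order the body axis and mark blood progenitors, differed one by one. The HOXA cluster held 0.858 kb in KARPAS-45 and 2.61 kb in PER-117, and the HOXC cluster 2.50 and 1.90 kb. The HOXB cluster (chromosome 17, 48528526 to 48728750) held none in KARPAS-45 and 23.5 kb in 11 regions in PER-117, where HOXB3 was among the longest covered genes of that line only. The HOXD cluster (chromosome 2, 176087487 to 176190907) held 29.2 kb in 8 regions in KARPAS-45 and 2.24 kb in 3 in PER-117. In HOXB KARPAS-45 had 6 RUNX2 peaks without acetylation and PER-117 had 5, and in HOXD they had 9 and 0.

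Cytokine receptors covered in a single line lay mostly in PER-117. Of 32 genes, 4 were covered in PER-117 only (12.5%) and 1, CSF1R with 1.17 kb, in KARPAS-45 only (3.13%), beside 4.39% and 8.93% of all genes. The 4 lie in 1 gene cluster on chromosome 2 (101991960 to 102452565), which encodes receptors of the interleukin 1 family. This cluster held 43.2 kb in 28 PER-117 regions and 0.933 kb in 1 KARPAS-45 region. IL1R1 had 21.02 kb, IL1RL1 9.64 kb, IL18RAP 4.53 kb and IL18R1 1.81 kb in PER-117. Among genes covered in both, PER-117 had 4 times or more at IL2RA, the high-affinity interleukin 2 receptor chain (1.103 and 16.5 kb), IL21R (5.14 and 28.3 kb) and IL4R (5.48 and 26.5 kb). IL7R, the receptor on which early T cells depend, had 12.8 and 11.97 kb. KARPAS-45 had 4 times or more at IFNGR2 (19.7 and 2.59 kb), IL10RA (8.21 and 1.25 kb), IL10RB (32.8 and 5.89 kb) and IL27RA (9.89 and 2.02 kb). Of the 23 covered in both, KARPAS-45 thus led so at 4 and PER-117 at 3, beside 21% and 2.69% of all genes. The list's median ratio, 1.52, lay below that of all genes, but was 1.5 against 1 for all genes with middle stretches of 500 bp.

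Downstream of these receptors, 22 of 23 JAK, STAT and SOCS genes were covered in both lines, with a median ratio of 1.31. PER-117 had more at 8 of them. These included PIM1, a kinase gene switched on by STAT proteins (2.57 and 14.7 kb), and the feedback inhibitors SOCS2 (3.99 and 15.6 kb), CISH (7.902 and 23.7 kb) and SOCS1 (6.31 and 13.3 kb). STAT4 had 6.41 and 22.8 kb and JAK3 3.81 and 6.84 kb. KARPAS-45 had 4 times or more at SOCS3 (11.1 and 2.203 kb), SOCS7 and PIAS1. Of the 22, KARPAS-45 thus led so at 3 and PER-117 at 1, beside 21% and 2.69% of all genes covered in both. SOCS6 was covered in neither.

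Homing receptors showed single-line loci in PER-117. Of 36 members, 4 were covered in PER-117 only (11.1%) and 1, CCR6 with 0.389 kb, in KARPAS-45 only (2.78%). Over all genes these shares were 4.39% and 8.93%. With 50 kb around the gene the counts were 1 and 1. The chemokine receptor CCR2, found on memory and inflammatory cells, had 14.9 kb in PER-117, and CCR1 had 2.11 kb. The collagen receptor chain ITGA2 had 13.5 kb. CCR4, a receptor of skin-homing T cells, had 0.213 and 7.17 kb. In the chromosome 3 cluster that holds CCR1 and CCR2, CCR9, the thymus and gut homing receptor of thymocytes, had 37.1 kb in KARPAS-45 and 1.92 kb in PER-117. KLF2, which controls exit from the thymus, had 11.3 and 0.468 kb, S1PR5 17.5 and 1.76 kb, and PECAM1 42.2 and 2.54 kb. Of the 30 covered in both, KARPAS-45 had 4 times or more at 7 and PER-117 at 1. These counts stand beside 21% and 2.69% of all genes covered in both. CXCR4, the marrow and thymus homing receptor, was covered in both (14.6 and 4.36 kb).

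Growth and survival pathways were mostly acetylated in both lines. In the lists below, in order, 7.41%, 6.45% and 6.06% of genes were covered in KARPAS-45 only, near the 8.93% of all genes. For PER-117 only the shares were 0%, 0% and 6.06%, beside 4.39%. In PI3K, AKT and insulin-like growth factor signalling, 25 of 27 genes were covered in both, and INSR, the insulin receptor (48.4 kb), and PIK3R3 (40.3 kb) in KARPAS-45 only. IGF1R had 287 and 30.2 kb, while INPP4B, a phosphatase that opposes PI3K, had 5.97 kb in 5 regions and 66.3 kb in 42. In the RAS and MAP kinase list, 28 of 31 were covered in both. The feedback inhibitors SPRY2 (7.49 kb) and SPRY4 (1.24 kb) were covered in KARPAS-45 only. SPRED1 (0.77 and 4.21 kb), DUSP5 (1.302 and 7.305 kb) and MAPK8 (1.83 and 9.72 kb) had 4 times or more in PER-117. These were 3 of the 28, beside 2.69% of all genes covered in both, and KARPAS-45 led so at 4, beside 21%. Of 33 NF-kB and TNF receptor genes, FASLG (15.5 kb) and TNFSF8, the CD30 ligand (13.3 kb), were covered in PER-117 only, and EDAR (11.7 kb) and TNFRSF25 (3.35 kb) in KARPAS-45 only. TNFSF10 (TRAIL) had 2.29 and 16.5 kb.

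Of 29 TGF-beta and BMP genes, 7 were covered in KARPAS-45 only (24.1%) and 1 in PER-117 only, beside 8.93% and 4.39% of all genes. The KARPAS-45 share equals that of the non-blood control list, and the 7 were 2 with the wider 50% of regions and 3 with 50 kb around the gene. The 7 include the ligands TGFB2 (0.383 kb), and BMP4 (5.85 kb) and the ligand-binding protein LTBP1 (5.83 kb). PER-117 had 4 times or more at SMAD6, an inhibitory SMAD (5.08 and 23.2 kb), and KARPAS-45 at genes including SMAD1 (30.3 and 0.926 kb) and SMAD4 (22.4 and 2.15 kb). Of the 18 covered in both, KARPAS-45 led so at 4 and PER-117 at 1, beside 21% and 2.69% of all genes. SMAD3 had 45.2 and 49.96 kb. Of 31 WNT genes, 25 were covered in both. AXIN2, a target of the pathway, had 20.98 and 0.251 kb, TCF7L1 15.95 and 0.885 kb and LRP5 82.2 and 11.6 kb.

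Genes of other lineages were checked because T-ALL lines can carry them. Over all genes, 8.93% were covered in KARPAS-45 only and 4.39% in PER-117 only. These shares were 8.33% and 12.5% for cytotoxic genes and 19.2% and 15.4% for myeloid genes. For erythroid and megakaryocyte genes they were 0% and 9.09%, and for B-lineage genes 20% and 15%. Of 24 natural killer and cytotoxic genes, TBX21 (T-bet), the factor of type 1 T cells (4.75 kb), and the granzymes GZMA (4.81 kb) and GZMK (2.45 kb) were covered in PER-117 only, with the TBX21 and GZMA starts within 1 kb of a region. GZMH (1.31 kb) and CCL5 (0.576 kb) were covered in KARPAS-45 only. The median ratio of the 13 covered in both was 0.806, with more in PER-117 at 9 of them. Of 26 myeloid genes, CD33 (11.5 kb), CEBPE, S100A9 and LILRB1 were covered in PER-117 only, and ITGAM (4.95 kb), ITGAX, MPO, ELANE and CSF1R in KARPAS-45 only. The widest region lay outside the gene span at MPO, ELANE and CSF1R in KARPAS-45 and at CD33 and S100A9 in PER-117. Of the 22 myeloid genes with a known start, 0 had it within 1 kb of a region in KARPAS-45 only and 3 in PER-117 only. Of 22 erythroid and megakaryocyte genes, 13 were covered in both lines, 0 in KARPAS-45 only and 2 in PER-117 only, AHSP (4.54 kb) and TAL1 (0.429 kb). PER-117 had more at 6 of the 13, whose median ratio was 1.13. The GATA1 window had 2.38 and 6.95 kb and the HBA1 window 0.706 and 7 kb, while HBB, HBG1 and PF4 were covered in neither. KLF1, an erythroid factor, went the other way with 4.92 and 0.841 kb. The B-lineage windows of CD79A (16.97 and 17.2 kb), IGLL1 (19.4 and 20.6 kb) and VPREB1 (6.303 and 6.25 kb) were covered in both, with ratios of 0.985, 0.944 and 1.01 against the 1.957 of all genes. Of 20 B-lineage genes, 10 were covered in both lines, 4 in KARPAS-45 only and 3 in PER-117 only. The 4 were BLNK (5.28 kb), POU2AF1 (2.39 kb), CD24 (1.57 kb) and MS4A1 (0.621 kb), and the 3 were EBF1 (2.52 kb), CD22 (2.01 kb) and CR2 (5.86 kb). PAX5 had 2.65 and 0.956 kb, away from its start. Of 29 non-blood genes 16, among them ALB and KRT5, were covered in neither line, 7 in KARPAS-45 only and 1 in PER-117 only, and the 5 covered in both had a median ratio of 5.41, above that of the cortical list. At 24.1% the KARPAS-45 share of this control list exceeds the 8.93% of all genes, so coverage in KARPAS-45 only also occurred at genes of other tissues. The 20 housekeeping genes were covered in both, with a median ratio of 1.93.

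Antigen receptor loci also differed between the lines. The T-cell receptor beta locus (chromosome 7, 142299011 to 142813287) held 245 kb in KARPAS-45 and 58.4 kb in PER-117, and the gamma locus 70.8 and 13.7 kb. The alpha and delta locus (chromosome 14, 21621904 to 22552132) held 63.2 kb in 20 regions and 90.7 kb in 47, with 12.7 kb common to both, so the lines differed in which parts were acetylated. Among immunoglobulin loci, the heavy chain variable segments (chromosome 14, 105939754 to 106879844) held 6.52 kb in 6 KARPAS-45 regions and 205 kb in 126 PER-117 regions, 21.8% of that span. The constant, diversity and joining part (105586937 to 105919518) held none in KARPAS-45 and 50.3 kb in 14 regions in PER-117. The kappa locus held 0.247 and 8.95 kb and the lambda locus 26.4 and 14.4 kb. The heavy chain variable segments held 18 RUNX2 peaks of KARPAS-45 and 45 of PER-117. The genes RUNX1 (182 and 98.7 kb), RUNX2 (138 and 65.2 kb) and RUNX3 (31.3 and 25.4 kb) were themselves acetylated in both lines.

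Across all genes, those with the most covered bases in a single line were not all blood genes. In KARPAS-45 only they were the cadherin FAT1 (146 kb in 3 regions), the nuclear envelope protein SYNE2 (130.0 kb), the neuropeptide receptor VIPR2 (117 kb), NINL (109.9 kb), PCBP3, CYFIP1, the nuclear receptor PPARG (82.3 kb), the esterase BCHE, PTPRS, PMEPA1, PHF21B and ROR2 (67.8 kb). In PER-117 only they were XYLT1, a proteoglycan enzyme (76.5 kb in 62 regions), NTM (38.8 kb), MDFIC, the zinc finger factor ZNF521 of early blood progenitors (35.97 kb), SAMSN1, an adaptor of blood cells (34.6 kb), MYO16, AFF3, the forkhead factor FOXP2 (29.02 kb), PLXNA2, MCTP2, B3GALT1 and HOXB3 (22.6 kb). Covered in both with the largest lead of PER-117 were the exchange factor VAV3 (1.09 and 101 kb), ZBTB16 (PLZF), the factor of innate-like T cells (2.58 and 95.4 kb), HORMAD2, KSR1, ARHGEF3, MAML3, PTPRD and the calcium channel ITPR1 (7.85 and 68.8 kb). The largest leads of KARPAS-45 were at LDLRAD4, an inhibitor of TGF-beta signalling (398 and 49.9 kb), COL23A1, IGF1R, SUPT3H, GSE1, SRPK2, FOXN3 and EXOC4.

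Promoters acetylated in a single line differed in base composition. Of 15812 promoter windows of 300 bases (250 before to 50 after the start), 7827 overlapped a region in both lines (49.5%), 1186 in KARPAS-45 only (7.5%), 477 in PER-117 only (3.02%) and 6322 in neither (40%). The median number of CpG dinucleotides was 27 in windows of both lines, 24 in those of KARPAS-45 only, 13 in those of PER-117 only and 8 in those of neither. The quartiles were wide, 11 to 34 for KARPAS-45 only and 5 to 29 for PER-117 only. Single genes depart from these medians, as the CpG-rich GATA2 run printed above shows. A match to TGTGGT on either strand stood in 10.8% of all windows, in 10.03% of those of KARPAS-45 only and in 16.1% of those of PER-117 only. AGATAA stood in 7.55%, 5.40% and 11.3%, GGAAGT in 24.8%, 17.5% and 23.5%, and TATAAA in 9.64%, 6.32% and 9.64%. In windows of both lines and of neither line, TGTGGT stood in 8.89% and 13.0%, and GGAAGT in 31.1% and 18.3%. AGATAA and TATAAA, which are AT-rich, were most frequent in the windows acetylated in neither line (12.2% and 16.5%). A match describes the letters and not a bound site.

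**Figure D5:**
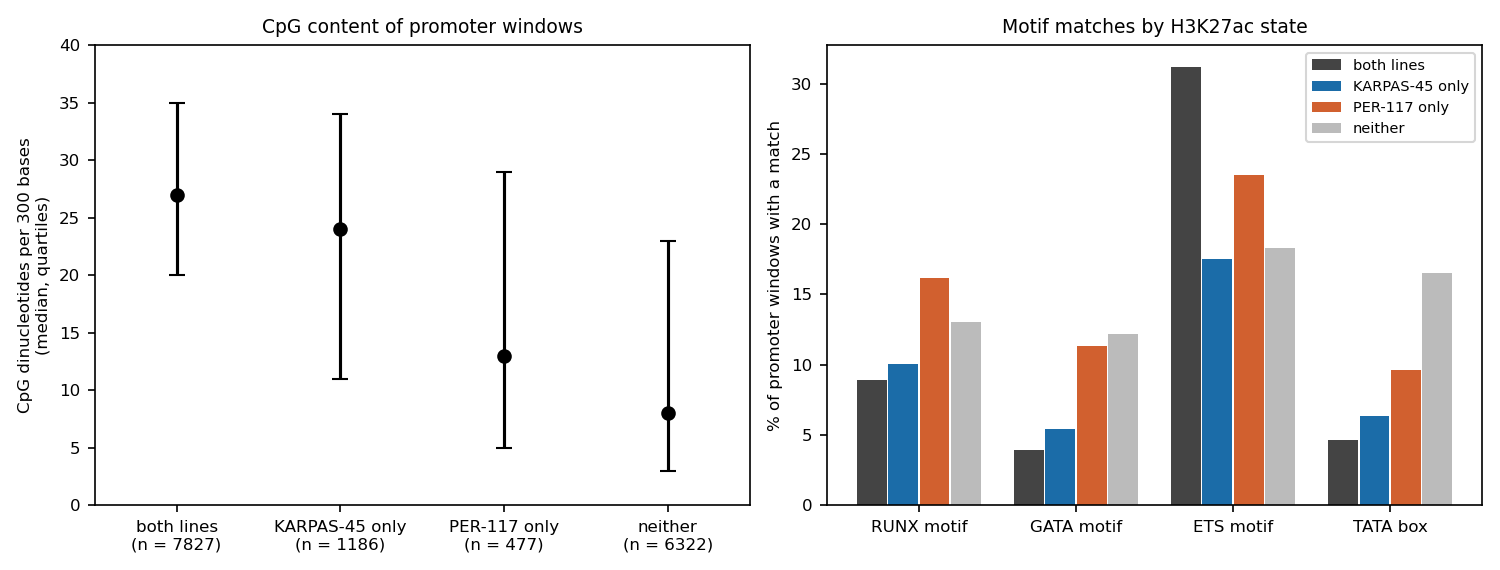
Left, CpG dinucleotides in promoter windows of 300 bases by H3K27ac state, median with quartiles. Right, the percentage of windows in each state with a match on either strand to the RUNX, GATA and ETS motifs and the TATA box, spelled out in the text; windows of PER-117 only have a median of 13 CpG against 24 in KARPAS-45 only.

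RUNX2 peaks, a readout that did not enter the choice of regions, were compared between shared and single-line regions of like width. In each width class and line, shared regions held a RUNX2 peak of the same line more often. Among KARPAS-45 regions from 1000 to under 2000 bp, 50.6% of the shared and 17.6% of the single-line regions did, and in PER-117 39.2% and 26.8%. At 4000 bp or more the values were 83.4% and 51.4% in KARPAS-45 and 83.8% and 77.4% in PER-117, and under 500 bp 14.99% and 5.51%, and 4.11% and 2.74%. The gap between shared and single-line regions was thus wider in KARPAS-45 than in PER-117 in each width class, a difference between 2 libraries that was not tested. Of the 58 listed genes covered in KARPAS-45 only, 45 had more RUNX2 peaks of KARPAS-45 in the window, 2 had more of PER-117 and 11 had equal numbers. Of the 37 covered in PER-117 only, 23 had more of PER-117, 4 had more of KARPAS-45 and 10 had equal numbers. Over all protein-coding genes covered in a single line, the like-line counts were 1163 of 1784 and 347 of 877. The other line had more at 16 and 129 of them, and numbers were equal at 605 and 401. This count was not made over genes covered in both lines, so no share over all genes stands beside it. The DNTT window held 7 RUNX2 peaks of KARPAS-45 against 0, and NFATC2 had 0 and 5. HOPX, covered in PER-117 only, had 2 and 0, and CD38, covered in KARPAS-45 only, had 1 and 2. At FASLG KARPAS-45 had 3 RUNX2 peaks and no H3K27ac region and PER-117 had 5 peaks.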

How the data were processed

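H3K27ac was measured by chromatin immunoprecipitation and sequencing in 1 library per line. Per the submitters' processing notes, STAR 2.4.2a, MACS2 and build hg38 were used; their roles and thresholds: not given in the sources used here. The 3 input samples were not analysed here. The deposited lists give per region a display score, the −log10 p, the −log10 q and a ratio, the fold enrichment. KARPAS-45 regions were not ranked by these values, since width and −log10 q were nearly unrelated there (Spearman 0.0879 across regions, 0.7435 in PER-117). Lines on other sequences (168 and 53) were set apart. Genes and starts came from RefSeq tables (GRCh38.p14), without exons. Starts were known for 15812 of 19974 protein-coding genes. All 552 listed genes matched, and 8 on chromosome 8 were left out.

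Overlaps, covered bases and Wilson intervals were computed in Python 3.11.15 (scipy 1.17.1, pandas 2.3.3, numpy 2.4.6; plots by matplotlib 3.10.9) after the interval code was tested on simulated data. The members, gene lists and settings were chosen with earlier results of these data known. The naming rule took, from each list, up to 5 single-line genes per line by covered bases and up to 4 genes per direction with a ratio of 4 or more, then over all genes the 12 longest single-line genes and 8 largest differences per line; other list members are named for context, and the text gives a selection of the genes the rule names. Alternatives were other overlaps, gene windows, minimum coverage, region widths, joining of regions and, for PER-117, a −log10 q of 2 or more. Some genes that the rule names are not reported here.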

Additional observations from a re-analysis of the deposited data

Results flagged for a closer look

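Regions on unplaced and unlocalised sequences, which entered no comparison, numbered 114 in KARPAS-45 and 53 in PER-117, both above the 3 counts that a count of 0 allows.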

How the results depend on the processing

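No paired analysis was possible because each line had 1 library. The share of KARPAS-45 regions that were shared, 35.3%, was 42.9% with the wider 50% of each list, 76.2% with KARPAS-45 regions taken widest first to the covered length of PER-117, 29.98% with PER-117 limited to −log10 q of 2 or more, 21.3% with middle stretches of 500 bp, 36.5% with regions within 1 kb merged and 34.1% with an overlap of 50% of the shorter region. For PER-117, 58.2%, the values in the same order were 62.1%, 20.9%, 65.9%, 25.4%, 61.01% and 55.8%, and 60.6% when PER-117 regions were joined across gaps of up to 833 bp, a setting chosen after seeing the data. Equal covered length shortens the KARPAS-45 list alone: genes covered in KARPAS-45 only went from 1784 to 175 and listed ones from 58 to 12, and those of PER-117 only went from 877 to 9423 and from 37 to 234, by construction. With 50 kb around the gene the KARPAS-45 counts were 1184 and 38. The other settings kept each gene count within 1.5 times, though merging or joining regions cannot change these counts. Of the listed genes of a single line, 58 of 58 and 37 of 37 kept that state with middle stretches of 500 bp, 45 and 30 with the gene span alone, 34 and 23 with 50 kb around the gene, and 34 and 32 with the wider 50%. CD1A, DNTT, CD6, HMGA2 and MEIS1 stayed in KARPAS-45 only in all 9 other settings, against 20 genes in 8 settings without equal covered length, which by itself leaves 12 of the 58. That count, and the one without THEMIS, were chosen after seeing the data. Depth was not given, so a gene outside a list may lie below its detection limit.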
